A study of Mus musculus with 12 samples.

Results

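The inflammasome and interleukin-1 genes described here are 10 genes taken by name from a table of 55401 mouse genes: Nlrp3, Pycard, Casp1, Casp4, Gsdmd, Il1b, Il18, Il1rn, Il1r2 and Il1rap. All 10 were found, and all 10 had a mean of at least 1 TPM (transcripts per 1000000) over the libraries, the level from which genes were tested (15026 genes in all). TPM is a read count divided by gene length and scaled to the same total in every library. The length here matched that of all annotated exons of a gene merged, 3800 bases for Pycard. Where this exceeds the length of the RNA made, the level is understated, so comparisons between genes are approximate.

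RNA-seq was made from MLL-AF9 leukemia cells, mouse bone marrow progenitors transduced with the MLL-AF9 fusion oncogene together with GFP. One such leukemia had been passed through irradiated and then unirradiated recipients more than 10 times before the cells went into 3 kinds of host: NSG mice, C57BL/6J mice lacking Rag2 (Rag2-/-), and unmodified C57BL/6 mice (WT), all female and aged 8 to 12 weeks. GFP+ cells were collected from the bone marrow of each host, with 4 biological replicates per host and 12 libraries in total. The hosts were moribund at collection. Rag2-/- mice make no mature T or B cells but keep natural killer (NK) cells, whereas NSG mice lack NK cells as well. The leukemia cells in all 3 hosts descend from the same transduced donor cells, so the 3 groups share 1 leukemia and do not sample different leukemias. For the same reason the host's genotype cannot be read from the cells: Il2rg, which is inactivated in NSG mice, stood at 41.2 to 61.4 TPM in the NSG libraries and 45.1 to 54.3 TPM in the WT libraries.

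An inflammasome is a protein platform that assembles in the cytosol when a sensor such as NLRP3 meets a danger signal. Through the adaptor ASC, the product of Pycard, it activates caspase-1, which matures interleukin-1β and interleukin-18 and cuts gasdermin D, whose fragments form pores in the membrane. Interleukin-1 signals through a receptor chain paired with the accessory protein encoded by Il1rap, and it is held in check by a receptor antagonist (Il1rn) and by a decoy receptor (Il1r2). In myeloid cells the machinery is largely made in advance, while Nlrp3 and Il1b are known to be switched on by inflammatory stimuli.

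The estimated depth was, in units of 1000000 reads, 16.0 to 27.1 in the WT libraries, 17.4 to 42.8 in Rag2-/- and 19.0 to 33.1 in NSG. The leukemia markers fixed for the check (7 genes, among them Hoxa9 and Meis1) were present in all libraries, with Hoxa9 between 192 and 234 TPM. Of 12 T and NK cell markers, 9 stayed below 1 TPM everywhere, and Cd3e and Trac were at 0. Low levels of some NK cell genes nevertheless differed between hosts, in both directions. Gzma was at 0 in all WT libraries, at 0.624 to 2.39 TPM in Rag2-/- and at 0 to 1.67 TPM in NSG. Ncr1 was at 0 in all WT and NSG libraries and at 0.108 to 0.531 TPM in Rag2-/-. Nkg7 went the other way, with means of 5.93 TPM in WT, 3.49 TPM in Rag2-/- and 5.19 TPM in NSG. Klrb1c overlapped, at 0 to 0.728 TPM in WT and 0.421 to 1.73 TPM in Rag2-/-. The summed T and NK cell markers overlapped, at 5.57 to 8.20 TPM in WT, 3.78 to 10.4 TPM in Rag2-/- and 2.40 to 8.56 TPM in NSG. The 14 macrophage markers summed to 105 to 113 TPM in WT, 115 to 136 TPM in Rag2-/- and 67.1 to 123 TPM in NSG. The 5 monocyte markers summed to 1874 to 1979 TPM in WT, 1400.0 to 1743 TPM in Rag2-/- and 1328 to 1814 TPM in NSG. For both sums the Rag2-/- and WT libraries did not overlap, but the members of each list disagreed. C1qa, C1qb, C1qc and Axl were higher in every Rag2-/- library than in every WT library. Adgre1 was not, with means of 57.4 TPM in WT and 55.0 TPM in Rag2-/-. Ly6c2, F13a1 and Cx3cr1 were lower in every Rag2-/- library than in every WT library. Ccr2 (means 383 TPM in WT and 381 TPM in Rag2-/-) and Csf1r hardly differed. All 5 dendritic cell markers stayed below 1 TPM. The summed B and plasma cell markers overlapped between hosts. Of these, Igkc was at 0.745 to 18.0 TPM in WT, and at most 0.295 TPM in Rag2-/- and 0.676 TPM in NSG. Erythroid markers summed to 3.20 to 4.25 TPM in WT, 4.30 to 9.15 TPM in Rag2-/- and 3.05 to 12.1 TPM in NSG. The 15 neutrophil markers were all detected: their summed level was 1789 to 3609 TPM in WT, 2740.2 to 11338 TPM in Rag2-/- and 2158 to 3519 TPM in NSG. Within Rag2-/-, replicate 4 stood apart from the others in this sum, at 2740.2 TPM against 9010.1, 10065 and 11338 TPM. Chil3 weighed most in the sum, at 1636 to 8732 TPM in Rag2-/- and 1214 to 2840 TPM in WT. Single markers could differ from the sum. For S100a8, S100a9 and Ngp the lowest Rag2-/- library was above the highest WT library (107 against 44.4, 148 against 31.2 and 79.0 against 19.7 TPM). The same separation held for Camp, Ltf, Lcn2, Retnlg, Mmp8, Mmp9, Cxcr2 and Cd177. It was narrow for Lcn2 (273 against 241 TPM) and Cd177 (147 against 143 TPM). Only Chil3, Ly6g, Csf3r and Padi4 overlapped between these hosts. In bulk RNA, a change in the share of a cell type and a change in RNA per cell cannot be told apart.

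None of the 10 genes passed the test in any comparison of hosts. The test was limma on log2(TPM + 1) with Benjamini-Hochberg adjustment over all 15026 genes, and a gene was called at an adjusted p below 0.05 with a log2 fold change beyond 0.5. The same test called 1.47% of all genes between Rag2-/- and WT, 0.213% between Rag2-/- and NSG, and 0% between NSG and WT. At an unadjusted p below 0.05, 1 of the 10 genes was reached in Rag2-/- against WT (Pycard), where 20.9% of all genes were. In Rag2-/- against NSG it was again 1 of 10 (Nlrp3), beside 12.6% of all genes, and in NSG against WT it was 0 of 10, beside 9.16%. None of these counts was above the share of all genes. With voom on reads recovered from the TPM, none of the 10 was called either.

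**Figure D1:**
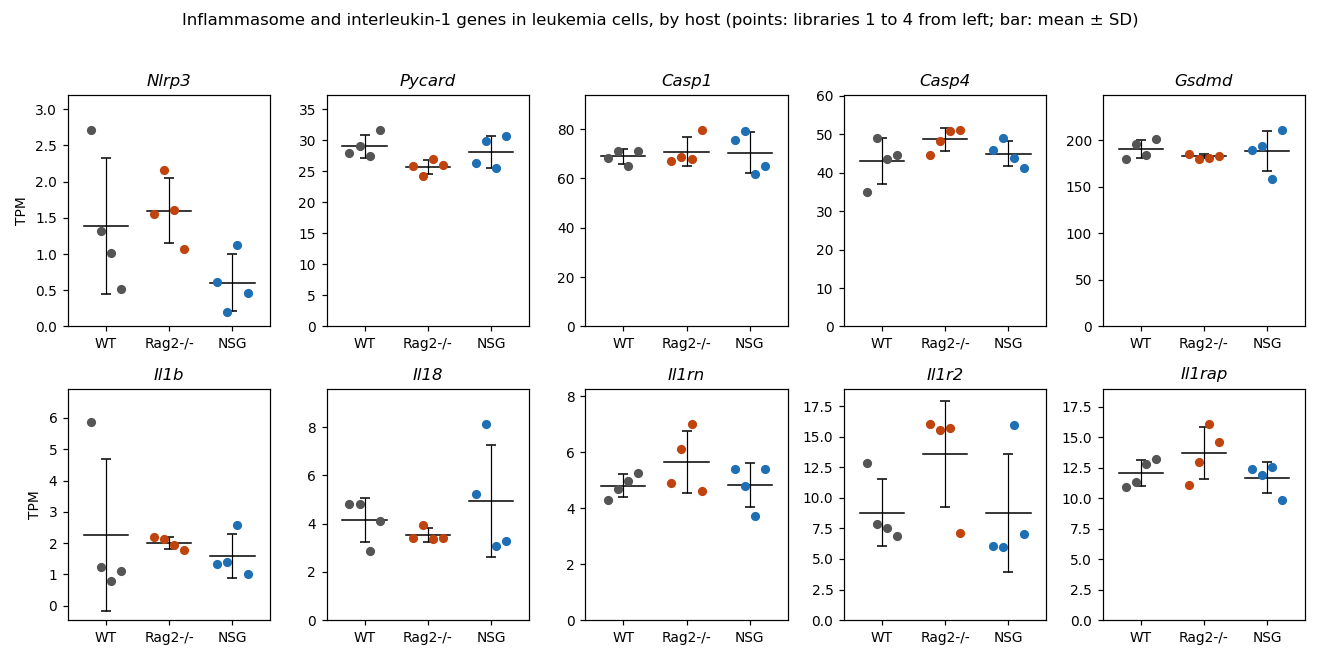
Levels of the 10 genes in TPM (y axes, each from 0 or just below) in the 4 libraries of each host (points, replicates 1 to 4 from left to right), with the mean and SD as bars. Caspase and gasdermin genes sit at nearly the same level in the 3 hosts, whereas Il1r2 and Il1b each hold single libraries far from the rest of their host.

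The executioner end of the pathway was strongly expressed and even. Gsdmd, which encodes the pore-forming gasdermin D, had the highest level of the 10 genes: 180.2, 196, 184 and 201 TPM in the WT libraries, 185, 180.2, 181 and 183 TPM in Rag2-/-, and 189.8, 193, 159 and 211 TPM in NSG. The hosts overlapped throughout, and the highest of the 12 values was 1.33 times the lowest. The Rag2-/- libraries were the least spread, at 183 ± 2.22 TPM (SD, n = 4), against 188 ± 21.6 TPM in NSG. Between Rag2-/- and WT it differed by -0.06 on the log2 scale (SE 0.07, adjusted p = 0.687, limma), with a 95% interval from -0.22 to 0.10.

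Casp1, the caspase that matures interleukin-1β, came next, at 68.9 ± 2.96 TPM in WT, 70.8 ± 5.87 TPM in Rag2-/- and 70.3 ± 8.30 TPM in NSG (SD, n = 4 each). Its 12 values ran from 61.8 to 79.5 TPM with full overlap of the hosts. The highest value, 79.5 TPM, came from Rag2-/- replicate 4, while the other Rag2-/- libraries lay between 66.9 and 68.7 TPM. Casp4, the neighbouring gene and the sensor caspase of the non-canonical inflammasome that recognises bacterial lipopolysaccharide inside the cell, stood at 43.0 ± 5.90 TPM in WT, 48.7 ± 3.01 TPM in Rag2-/- and 44.9 ± 3.27 TPM in NSG. The lowest Casp4 value was that of WT replicate 1, 34.9 TPM. In Rag2-/- against WT, the log2 fold change of Casp4 was 0.18 (SE 0.09, adjusted p = 0.294, limma), and without WT replicate 1 it was 0.09. Both caspase genes lie next to each other on chromosome 9 (GRCm38), Casp1 at 5298517 to 5307265 and Casp4 at 5308828 to 5336783, both on the plus strand.

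Pycard, the gene of the adaptor ASC, was the one gene of the 10 whose hosts separated without overlap. The WT libraries held 27.9, 29.1, 27.5 and 31.6 TPM, the Rag2-/- libraries 25.8, 24.3, 27.0 and 26.0 TPM, and the NSG libraries 26.3, 29.9, 25.5 and 30.6 TPM. Every Rag2-/- library lay below every WT library, although the gap between the closest pair, 27.0 and 27.5 TPM, was narrow, and the NSG libraries overlapped both. Such separation of 4 libraries from 4 was seen in 1 of the 10 genes and in 16.9% of all genes tested in this comparison. On the log2 scale the difference was -0.17 (SE 0.08, 95% interval -0.33 to -0.0028), unadjusted p = 0.0467 and adjusted p = 0.232 (limma), so the shift did not pass. Pycard shares 485 exon bases with a predicted gene on the opposite strand, which had at most 0.377 TPM.

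Nlrp3, the sensor, had the lowest mean level of the 10 genes, at 1.198 TPM over all libraries, and the widest range relative to it, 13.1-fold from lowest to highest. The values were 2.71, 1.32, 1.01 and 0.521 TPM in WT, 1.56, 2.17, 1.61 and 1.07 TPM in Rag2-/-, and 0.621, 0.207, 1.13 and 0.457 TPM in NSG. All of the NSG libraries except replicate 3 lay below the lowest Rag2-/- library, and WT covered nearly the whole span. On the log2 scale the difference between Rag2-/- and NSG was 0.71 (SE 0.29, 95% interval 0.08 to 1.34), the largest of the 10 genes in size in that comparison, with unadjusted p = 0.0302 and adjusted p = 0.326 (limma). At such low levels the size depends on the scale. With 0.1 in place of 1 added to the TPM it was 1.41 (adjusted p = 0.312, limma). With voom it was 1.48 (adjusted p = 0.175). The Nlrp3 levels rest on an estimated 5 to 63 reads per library, and its lowest count was the lowest of the 10 genes.

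**Figure D2:**
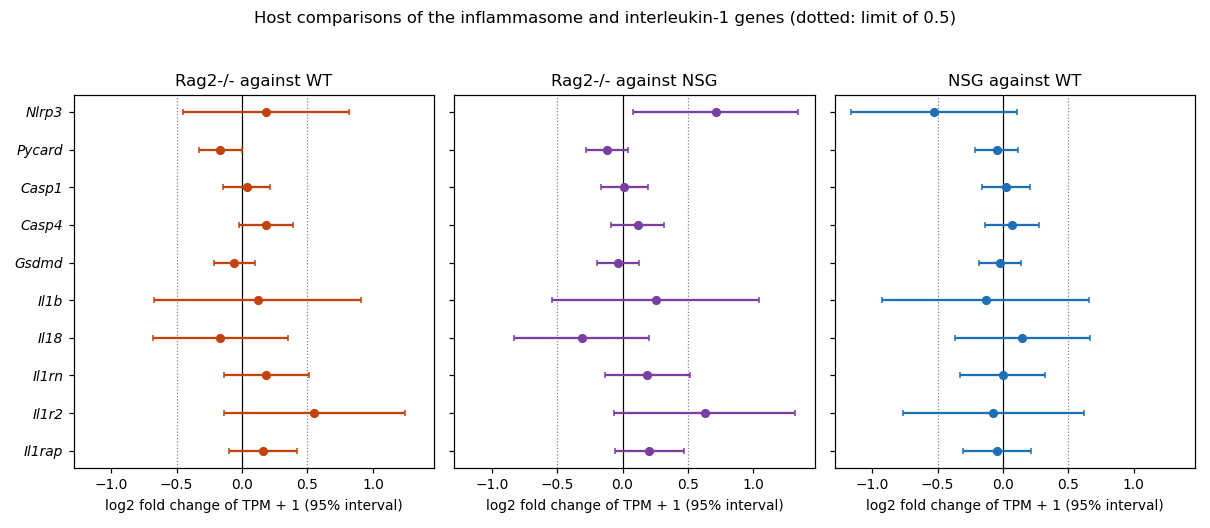
Log2 fold change of TPM + 1 (x axis) with its 95% interval for each of the 10 genes in the 3 host comparisons, with dotted lines at the limit of 0.5. Intervals of Pycard, Casp1, Casp4, Gsdmd and Il1rap stay inside the limit in all 3 panels, while those of Nlrp3, Il1b, Il18 and Il1r2 cross it.

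How far a difference was bounded varied with the gene. For Pycard, Casp1, Casp4, Gsdmd and Il1rap the 95% interval lay within 0.5 log2 units on either side of 0 in all 3 comparisons, and Il1rn joined them between NSG and WT. For Nlrp3, Il1b, Il18 and Il1r2 the intervals reached beyond 0.5 in every comparison, so a change of that size was neither shown nor bounded. Over the 10 genes, 7 had a positive log2 fold change in Rag2-/- against WT, with a median of 0.14, and 7 in Rag2-/- against NSG, with a median of 0.15. Over all genes tested, 54.5% and 53.4% were positive, with medians of 0.02 and 0.01. Both comparisons use the same Rag2-/- libraries, and Casp1 turned negative against NSG under quantile normalization and median-ratio scaling. Between NSG and WT, 3 of the 10 were positive and the median was -0.034, beside 51.5% and 0.0049 over all genes.

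The 2 cytokine genes were expressed at a low level. Il1b, which encodes the inflammatory cytokine interleukin-1β, stood at 5.88, 1.25, 0.805 and 1.11 TPM in WT, 2.21, 2.14, 1.93 and 1.79 TPM in Rag2-/-, and 1.32, 1.41, 2.59 and 1.03 TPM in NSG. WT replicate 1 was far above the other libraries, and this library alone put the WT mean (2.26 TPM) above the Rag2-/- mean (2.02 TPM). With it, the log2 fold change of Rag2-/- against WT was 0.12 (SE 0.36, adjusted p = 0.880, limma). Without it, the change was 0.56 with adjusted p = 0.214, still not called. In NSG against WT, leaving out the same library turned the sign, from -0.13 to 0.30. The Rag2-/- libraries were the most even, with a coefficient of variation of 9.61% against 107% in WT and 43.5% in NSG.

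Over the 12 libraries, the genes whose Z scores of log2(TPM + 1) lay closest to those of Il1b were Cxcl2, a neutrophil-attracting chemokine (root mean square difference 0.341), Nfkbiz, a nuclear cofactor of NF-κB (0.365), and Qars, a glutamine tRNA synthetase (0.494). This likeness was looked at for Il1b after its values had been seen, and genes chosen in this way share its peak by construction. Cxcl2 reached 41.5 TPM in WT replicate 1 and 0.409 to 4.44 TPM in the other 11 libraries. Nfkbiz was at 34.3 TPM there and at 9.86 to 20.8 TPM elsewhere. WT replicate 1 was also the highest of the WT libraries in summed neutrophil markers, at 3609 TPM; the part of those cells in its Il1b level was not tested.

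Il18, the gene of the second cytokine that caspase-1 matures, was at 4.14 ± 0.922 TPM in WT, 3.53 ± 0.286 TPM in Rag2-/- and 4.93 ± 2.34 TPM in NSG (SD, n = 4 each). The NSG values were 5.23, 8.13, 3.08 and 3.30 TPM, so that replicate 2 set the NSG mean. The log2 fold change of Rag2-/- against NSG was -0.31 (SE 0.24, adjusted p = 0.641, limma), and without NSG replicate 2 it was -0.08. Il18 was counted on an estimated 17 to 50 reads per library. Il1a, the other classical interleukin-1, was at 0.0895 to 1.43 TPM and fell under the level needed for testing.

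Among the genes that restrain interleukin-1, Il1r2 had the largest difference between Rag2-/- and WT of the 10 genes, with uneven replicates. It encodes a receptor that binds interleukin-1 without signalling. The WT libraries held 12.9, 7.90, 7.51 and 6.87 TPM, the Rag2-/- libraries 16.0, 15.6, 15.7 and 7.10 TPM, and the NSG libraries 6.03, 5.97, 15.9 and 7.07 TPM. The values thus fell on 2 levels, with 5 libraries between 12.9 and 16.0 TPM and 7 between 5.97 and 7.90 TPM, and each host had libraries on both. An antisense gene, Gm16894, overlaps Il1r2 without shared exon bases and was at 1.26 to 6.92 TPM, and the use of strand in counting is not given.

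The log2 fold change of Il1r2 was 0.55 in Rag2-/- against WT (SE 0.32, 95% interval -0.14 to 1.24, adjusted p = 0.347, limma) and 0.63 against NSG (SE 0.32, 95% interval -0.06 to 1.32, adjusted p = 0.452). Against WT it was 0.82 without Rag2-/- replicate 4 (adjusted p = 0.166). Against NSG it was 0.93 without NSG replicate 3 (adjusted p = 0.135), the smallest adjusted p of the 10 genes under any setting. Neither passed. Rag2-/- replicate 4, the low library for Il1r2, was also the Rag2-/- library with the lowest summed neutrophil markers, 2740.2 TPM. NSG replicate 3, which was high for Il1r2, had 2362 TPM of neutrophil markers, within the range of the other NSG libraries. Its summed macrophage (67.1 TPM), monocyte (1328 TPM) and T and NK cell markers (2.40 TPM) were the lowest of the NSG libraries. The part of neutrophils in the Il1r2 levels was not tested.

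**Figure D3:**
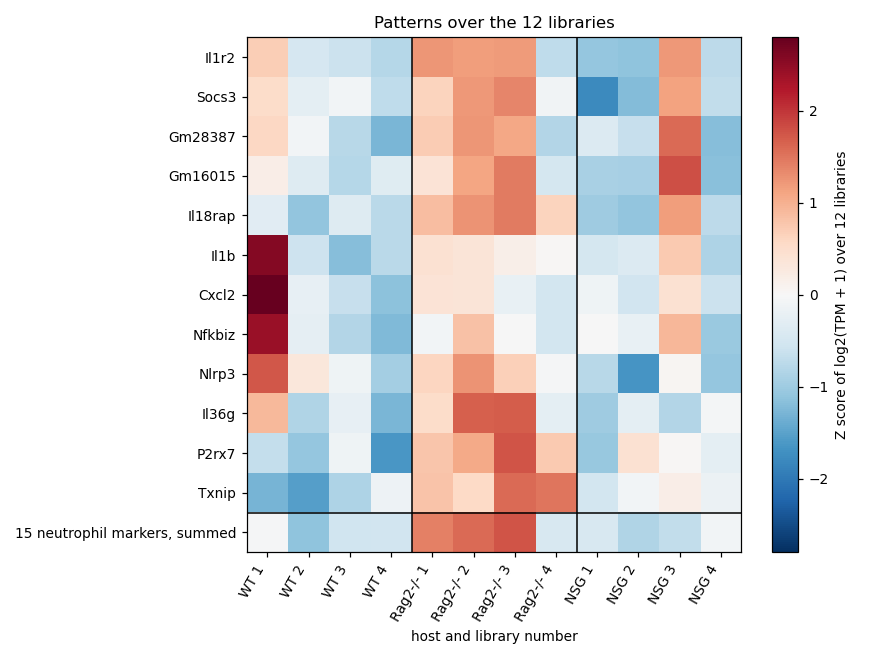
Z score of log2(TPM + 1) over the 12 libraries (colour, red high and blue low) for Il1r2, Il1b, Nlrp3, the genes nearest to Il1r2 and Il1b, 4 other genes of the pathway, and the sum of 15 neutrophil markers. The high libraries for Il1r2 are WT 1, Rag2-/- 1 to 3 and NSG 3, whereas Il1b, Cxcl2 and Nfkbiz peak in WT 1.

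The 3 genes whose pattern over the 12 libraries was most like that of Il1r2 were Socs3, a feedback inhibitor of cytokine signalling (root mean square difference of Z scores 0.368), and the predicted genes Gm28387 (0.391) and Gm16015 (0.408). Socs3 was at 16.7 ± 2.79 TPM in WT, 22.6 ± 4.61 TPM in Rag2-/- and 14.9 ± 6.81 TPM in NSG (SD, n = 4 each). Its highest NSG value, 24.8 TPM, was in replicate 3, the NSG library that was also high for Il1r2. Neither Socs3 nor the 2 predicted genes passed the test in any comparison, with the lowest adjusted p of the 9 tests at 0.288 (limma, Socs3 in Rag2-/- against NSG).

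Il1rn encodes the receptor antagonist, a soluble protein that occupies the receptor without activating it. Its level was 4.81 ± 0.423 TPM in WT, 5.67 ± 1.11 TPM in Rag2-/- and 4.83 ± 0.783 TPM in NSG (SD, n = 4 each). The Rag2-/- libraries held 4.91, 6.13, 7.01 and 4.61 TPM, of which replicates 2 and 3 were above all other libraries of the series. Compared with WT, Rag2-/- differed by 0.19 on the log2 scale (limma, SE 0.15, adjusted p = 0.514). Il1rn exceeded Il1b in 11 of the 12 libraries, the exception being WT replicate 1, where Il1b was at 5.88 TPM and Il1rn at 4.28 TPM.

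Il1rap, the accessory chain shared by the receptors for interleukin-1, interleukin-33 and interleukin-36, was at 12.1 ± 1.09 TPM in WT, 13.7 ± 2.14 TPM in Rag2-/- and 11.7 ± 1.26 TPM in NSG (SD, n = 4 each). The Rag2-/- values were 11.1, 12.96, 16.1 and 14.6 TPM, and 2 of them were above all other libraries. In Rag2-/-, the log2 difference was 0.16 from WT (SE 0.12, adjusted p = 0.478) and 0.21 from NSG (SE 0.12, adjusted p = 0.525, limma). On the level scale, the order of the means over all libraries was Gsdmd, Casp1, Casp4, Pycard, Il1rap, Il1r2, Il1rn, Il18, Il1b and Nlrp3. The order depends on the exon lengths by which the reads were divided. From Gsdmd down to Il1rap, neighbours in that order did not overlap within any host. Il1rap and Il1r2 overlapped in all 3 hosts, as did Il1b and Nlrp3, while Il1rn and Il18 overlapped in WT and NSG.

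The chains that would bind the ligands were unevenly expressed. Il1r2 lies at the head of a receptor cluster on chromosome 1 (GRCm38), where Il1r2 (40074079 to 40125231), Il1r1 (40225080 to 40317257), Il1rl2 (40324610 to 40367562), Il1rl1 (40429570 to 40465415), Il18r1 (40465552 to 40500854) and Il18rap (40515362 to 40551705) follow each other on the plus strand. Il1r1, the signalling receptor for interleukin-1, was at only 0.606 to 1.03 TPM over the 12 libraries, so its decoy Il1r2 was higher in every library. Il1rl1, the interleukin-33 receptor, stayed at or below 0.119 TPM. Il18r1, the ligand-binding chain for interleukin-18, stayed at or below 0.458 TPM, whereas its partner chain Il18rap was at 15.04 to 38.3 TPM. Il1rl2, the interleukin-36 receptor, was at 14.0 to 21.0 TPM with overlap of the hosts.

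**Figure D4:**
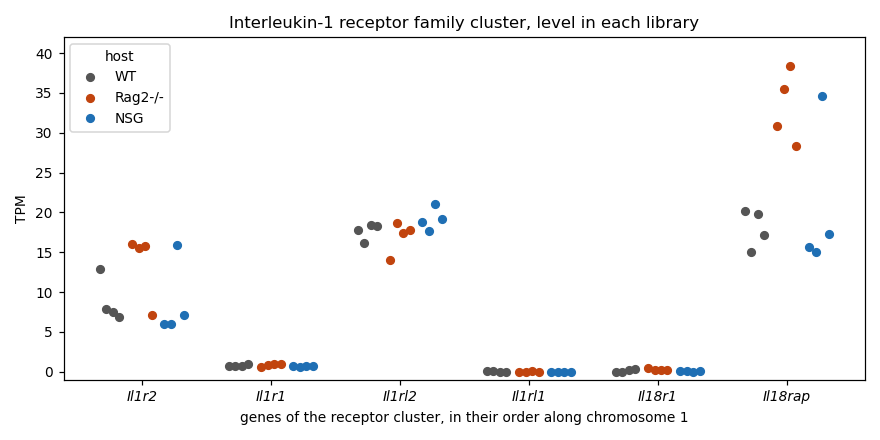
Level in TPM (y axis) of the 6 receptor genes of the chromosome 1 cluster in every library, in gene order, coloured by host. Il1r2, Il1rl2 and Il18rap are expressed, Il1r1, Il1rl1 and Il18r1 are near 0, and NSG replicate 3 lies with the Rag2-/- libraries for Il1r2 and Il18rap.

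Il18rap was the receptor with the largest difference between hosts. The WT libraries held 20.1, 15.1, 19.8 and 17.2 TPM and the Rag2-/- libraries 30.9, 35.5, 38.3 and 28.3 TPM, without overlap. The NSG libraries held 15.7, 15.04, 34.6 and 17.3 TPM, with replicate 3 inside the Rag2-/- range. The log2 fold change of Rag2-/- against WT was 0.85 (SE 0.22, adjusted p = 0.0555, limma), just short of the threshold, and that against NSG was 0.74 (SE 0.22, adjusted p = 0.164). Without NSG replicate 3 both passed, at adjusted p = 0.00475 and 0.0134. Over all genes, leaving out this library raised the calls from 221 to 327 against WT and from 32 to 85 against NSG. The comparison with WT also passed when genes had to reach 1 TPM in every library (adjusted p = 0.0452), when only the 8 libraries compared were fitted (0.0114) and with voom (0.0268). Il18rap and, described next, P2rx7, Txnip and Naip1 are among the genes the study picked from these libraries, so their direction is not independent evidence.

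Beyond the 10 genes, 47 others of the pathway were listed, and 36 of them reached a mean of 1 TPM. Between Rag2-/- and WT, 2 of the 36 rose and 0 fell, where 1.47% of all genes were called. Macrophage, monocyte and erythroid marker sums also differed between these hosts. So did Igkc, some of the NK cell markers and the neutrophil markers given above as separated. Their part in these differences, and in that of Il18rap, was not tested. P2rx7, the ATP-gated channel whose opening is a classical trigger of NLRP3, was at 5.92, 5.21, 6.96 and 4.39 TPM in WT, 9.06, 9.86, 12.05 and 8.98 TPM in Rag2-/-, and 5.24, 8.20, 7.31 and 6.67 TPM in NSG. The Rag2-/- libraries were above all others. P2rx7 rose by 0.74 on the log2 scale against WT (SE 0.16, adjusted p = 0.0313, limma), and the 0.49 against NSG did not pass (adjusted p = 0.198). The call was lost when any of 6 libraries was left out: WT replicate 1 (adjusted p = 0.0577), 2 (0.0999) or 4 (0.0704), or Rag2-/- replicate 1 (0.0512), 2 (0.0792) or 3 (0.112).

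Txnip, which encodes a thioredoxin-binding protein linked to NLRP3 activation, was at 95.2, 90.0, 105 and 125 TPM in WT and at 155, 147, 186 and 182 TPM in Rag2-/-. In NSG it was at 114, 126, 134 and 124 TPM, between the other hosts. All Rag2-/- libraries were above all WT and NSG libraries, replicate 4 included. Txnip rose by 0.69 on the log2 scale in Rag2-/- against WT (SE 0.10, adjusted p = 0.00919, limma) and passed with each library left out in turn. Against NSG the log2 fold change was 0.42 (SE 0.10, adjusted p = 0.121), and between NSG and WT it was 0.27 (SE 0.10, adjusted p = 0.495).

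**Figure D5:**
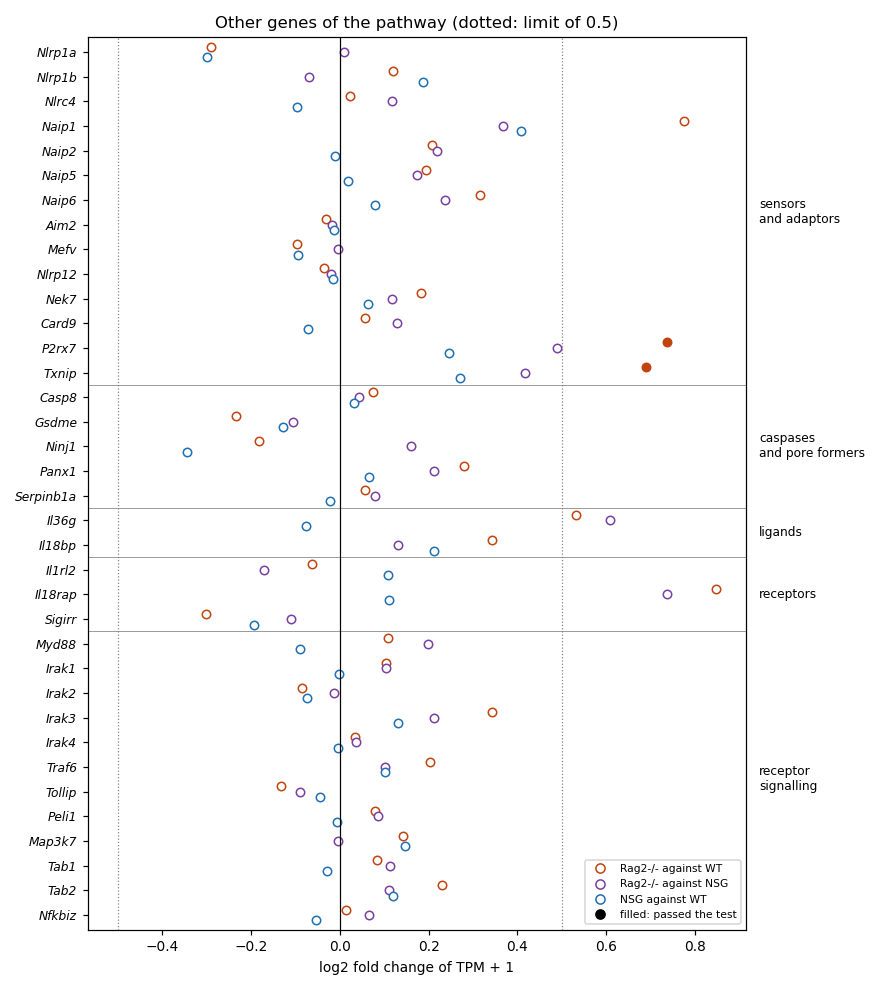
Log2 fold change of TPM + 1 (x axis) of the 36 other tested genes of the pathway, grouped by role, in the 3 host comparisons, with filled points for those that passed the test. Of all points, those of P2rx7 and Txnip in Rag2-/- against WT are filled, and Il18rap, Naip1 and Il36g also lie beyond 0.5 there without passing.

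The remaining genes with the largest differences did not pass in the fit used throughout. Naip1, one of the NAIP sensors that detect bacterial flagellin and secretion proteins, was at 0.613 ± 0.248 TPM in WT, 1.76 ± 0.424 TPM in Rag2-/- and 1.15 ± 0.376 TPM in NSG (SD, n = 4 each). Its log2 fold change in Rag2-/- against WT was 0.78 (SE 0.21, adjusted p = 0.0679, limma), and it passed without a trend in the variance (adjusted p = 0.0339) and with voom (log2 fold change 1.39, adjusted p = 0.0334). The Naip genes are close copies of each other, so reads may be divided between them uncertainly. Il36g, a member of the interleukin-1 family that acts through Il1rl2, was at 6.76 ± 2.29 TPM in WT, 10.2 ± 3.01 TPM in Rag2-/- and 6.19 ± 0.944 TPM in NSG. The log2 fold change of Il36g was 0.53 against WT (SE 0.23, adjusted p = 0.205) and 0.61 against NSG (SE 0.23, adjusted p = 0.276). Its lowest Rag2-/- value, 6.71 TPM, was in replicate 4, the Rag2-/- library with the lowest summed neutrophil markers, whose part was not tested.

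By role, the 14 tested sensors and adaptors had a median log2 fold change of 0.15 in Rag2-/- against WT and held both called genes. The 12 genes of receptor signalling, among them Myd88 and the Irak kinases, had a median of 0.09, with none called. The 5 caspases and pore formers had a median of 0.06, with none called. The 3 receptors had a median of -0.06 and the 2 ligands, Il36g and Il18bp, one of 0.44, again with none called. Over the 36 genes the median was 0.09, beside 0.02 over all genes tested. Of the 36, 13 were higher and 1 lower at an unadjusted p below 0.05, beside the 20.9% of all genes that reached it, and 11 were higher and 2 lower in every Rag2-/- library than in every WT library, beside 16.9%.

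Between NSG and WT none of the 36 passed by limma or voom, with 4 at an unadjusted p below 0.05, beside 9.16% of all genes. Ninj1, whose product ruptures the membrane after gasdermin pores have formed, had the largest difference after Naip1, with a log2 fold change of -0.34 (SE 0.09, adjusted p = 0.342, limma). Its level was 145 ± 9.09 TPM in WT and 115 ± 12.3 TPM in NSG, and all NSG libraries lay below all WT libraries, as 4.59% of all genes were separated in that comparison. Nlrp1a, the sensor of another inflammasome, had a log2 fold change of -0.30 there (SE 0.18, adjusted p = 0.641). Between Rag2-/- and NSG 0 of the 36 passed, with limma or with voom, beside 0.213% of all genes, and 8 reached an unadjusted p below 0.05, beside 12.6%. In that comparison 4 of the 36 were separated (P2rx7, Txnip, Panx1 and Myd88, all higher in Rag2-/-), as were 0 of the 10 genes and 6.59% of all genes.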

How the data were processed

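Reads had been mapped to mm10 by HISAT2 on Galaxy, and the authors deposited TPM for each library. The counting tool, annotation and use of strand are not given in the sources used here. The libraries sum to 1000000 TPM, and mitochondrial genes are listed at 0. Symbols and exon lengths for 55141 of 55401 genes came from GENCODE M21 (GRCm38), and IL-36 genes were matched by RefSeq synonym. Depth was estimated from the step between low TPM values times exon length; about 99% of genes under 20 reads gave whole reads within 0.1, and mates seem to be counted singly.

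All 12 libraries were fitted together in limma 3.58.1 (R 4.3.3; lmFit, contrasts.fit, eBayes with trend) on log2(TPM + 1), which understates changes of low genes. Intervals are 95% intervals. The fit was tested on simulated data.

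Members, lists and tests were chosen with earlier results of these data known. Named besides the 10 genes were pathway genes called or among the 3 largest changes per comparison, and the 3 genes nearest in Z score to the gene of the 10 with the largest change in Rag2-/- against WT. P-values measure the spread between libraries labelled as biological replicates.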

Additional observations from a re-analysis of the deposited data

Results flagged for a closer look

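Dixon's criterion for 4 values is the gap to the nearest library over the range of the host. By it, a library far from the other 3 of its host was found in 7 of 51 groups examined. These were the 10 genes and the named pathway genes in each host. For independent groups chance gives about 1 in 20, or 2.55. The groups share the same 12 libraries, and the pathway genes were named for their changes in these data, so the 7 cannot be judged against that number. Il1r2 had such a library in every host: WT replicate 1 was high (0.8293), Rag2-/- replicate 4 was low (0.9459) and NSG replicate 3 was high (0.8898). NSG replicate 3 was also high for Il18rap (0.8826). WT replicate 1 was high for Il1b (0.9128). In Rag2-/-, replicate 4 was high for Casp1 (0.8571) and replicate 2 was high for Il18 (0.9382), the latter within a span of only 3.37 to 3.96 TPM.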

How the results depend on the processing

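None of the 10 genes was called in any comparison under any of the 22 alternatives, 12 of which left out 1 library each, though Nlrp3 and Il1b were not tested with at least 1 TPM required in every library, nor Nlrp3 in NSG against WT with only their 8 libraries. The lowest adjusted p reached was 0.135, for Il1r2 in Rag2-/- against NSG without NSG replicate 3. The count of other pathway genes called in Rag2-/- against WT, 2, became 1 with all genes above 0 tested and 4 with voom on recovered reads, and 1 to 3 with a library left out; in Rag2-/- against NSG leaving out a library gave 0 to 1. P2rx7 had adjusted p = 0.0676 with all genes above 0 tested. Signs turned for small, uncalled differences: Casp1 in Rag2-/- against NSG was -0.0020 under quantile normalization and -0.0051 under median-ratio scaling, Il1rn in NSG against WT was 0.024 with voom, and Nlrp1a in Rag2-/- against NSG was -0.018, -0.0074 and -0.019 under quantile normalization, median-ratio scaling and voom.

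With a library left out, the log2 fold changes that changed sign ranged as follows. In Rag2-/- against WT, Nlrp3 ran from -0.0079 to 0.42, Casp1 from -0.021 to 0.061 and Il1b from -0.085 to 0.56. In Rag2-/- against NSG, Casp1 ran from -0.046 to 0.071, Gsdmd from -0.11 to 0.021 and Nlrp1a from -0.20 to 0.12. In NSG against WT, Casp1 ran from -0.036 to 0.081, Casp4 from -0.025 to 0.13, Gsdmd from -0.079 to 0.056, Il1b from -0.34 to 0.30, Il18 from -0.086 to 0.30, Il1rn from -0.049 to 0.096, Il1r2 from -0.38 to 0.10, Il1rap from -0.088 to 0.028, Il36g from -0.21 to 0.10 and Il18rap from -0.16 to 0.23. The cause was not tested.

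Same-numbered libraries did not deviate together over the genes tested (correlations -0.09 to 0.03), so they were not treated as pairs. Such correlations cannot exclude a shared batch behind the replicate numbers. With the replicate block 0 of the 10 genes were called, and 2, 0 and 0 of the pathway genes. Depth limits Nlrp3, Il1b and Il18, which rest on 5 to 63 estimated reads.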
